A study of Mus musculus with 9 samples.

Results

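The genes described here encode 9 G protein-coupled receptors (GPCRs) for lipid mediators and oxysterols, taken by gene symbol from the 54532 genes listed for DCs sorted from mouse spleen. Gpr183 is the oxysterol receptor. S1pr1 and S1pr3 are receptors for sphingosine 1-phosphate (S1P), Ptger2, Ptger3 and Ptger4 are receptors for prostaglandin E2, and Ltb4r1 is the high-affinity receptor for leukotriene B4. Gpr132 and Gpr35 are less settled in their ligands, with oxidized fatty acids and lysophospholipids reported for Gpr132 and kynurenic acid and lysophosphatidic acid for Gpr35.

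Lipid-sensing GPCRs guide where immune cells go and how strongly they respond. In the spleen, oxysterols that bind Gpr183 position DCs at the bridging channels, S1P gradients between blood and tissue guide cell exit, leukotriene B4 attracts myeloid cells, and prostaglandin E2 changes DC maturation and migration through cyclic AMP. Ligand levels are set by enzymes that make and break down the lipids, so the receptor and enzyme genes are usually read together.

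RNA from sorted DCs was sequenced in 9 samples, 3 in each of 3 groups. N-mDCs were mature conventional DCs (cDCs) from the spleens of normal mice that received no leukemia cells. T-DCs were the CD11c+ cells with low surface MHCII from spleens of mice with T-cell acute lymphoblastic leukemia (T-ALL), named immature DCs in the labels, and T-mDCs were the mature cDCs of leukemic spleens. Leukemia was started with GFP+ cells that a retrovirus had made to express the intracellular domain of Notch1 (ICN1), given without irradiation to C57BL/6J or C57B6.SJL recipients. The study used female mice of 6 to 8 weeks, and DCs were sorted on day 15 after CD11c bead enrichment and lysis of red cells. T-DCs were gated on cells negative for GFP, CD3 and NK1.1. The sources do not state whether animals were pooled or whether the samples of a group came from separate animals, so the p-values measure only the spread between these samples.

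Levels are FPKM, read counts divided by gene length and by a scaling size for each sample, and can be compared between genes because they are per length. The scaling size was not the total of reads on genes (15498648 against 16977553 in T-DC sample 2). The median over genes of each sample's ratio to the geometric mean of the samples (median-of-ratios factor) was 1.00426 in every sample. Reads on genes ranged from 15360815 to 18440913 per sample. Differences are log2 fold changes of FPKM + 1, which understates the change of genes with low FPKM, and were tested with limma for the 12746 genes that reached 1 FPKM in 3 or more samples. A gene is called where its adjusted p is under 0.05. All 9 receptor genes passed the filter, Ptger2 only through T-DC samples 1 and 3 and T-mDC sample 1. T-mDC samples 2 and 3 were nearly alike, with a chi-square per gene of 1.85 over genes of 20 to 200 reads against 7.77 to 35.7 in the other pairs within a group, so calls that end when they are averaged into 1 sample are named.

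The DC labels were checked against marker genes. The summed FPKM of 6 cDC markers (Flt3, Zbtb46, Itgax, Ciita, Cd74 and H2-Ab1) ran from 13073 to 19533 among N-mDCs and from 8742 to 12271 among T-mDCs, while T-DCs had 500 to 1832, and the sort on low MHCII bears on Ciita, Cd74 and H2-Ab1. Cd74 and H2-Ab1 made up most of this sum in every sample (11203.5 and 5618 of 17223 FPKM in N-mDC sample 1). Of the other 3, Zbtb46, a transcription factor of cDCs, was at 1.84, 2.84 and 3.42 FPKM in T-DCs against 11.7 to 16.0 FPKM in N-mDCs. Flt3 was at 15.4, 6.11 and 4.48 FPKM against 44.4 to 78.8 FPKM. Itgax differed less, at 152, 90.4 and 43.0 FPKM against 158 to 230 FPKM. The 10 erythroid markers summed to 619 FPKM in T-DC sample 1 and to 58480 and 42927 FPKM in T-DC samples 2 and 3, against 105 to 5376 FPKM in N-mDCs and 16.2 to 185 FPKM in T-mDCs. The 11 neutrophil markers summed to 13.9, 4369 and 1538 FPKM in T-DC samples 1 to 3. The part of these cells in the differences of the receptor genes was not tested beyond a fit with the erythroid markers as a covariate. In bulk samples, fewer cells that carry a receptor and less of its RNA per cell cannot be told apart.

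**Figure D1:**
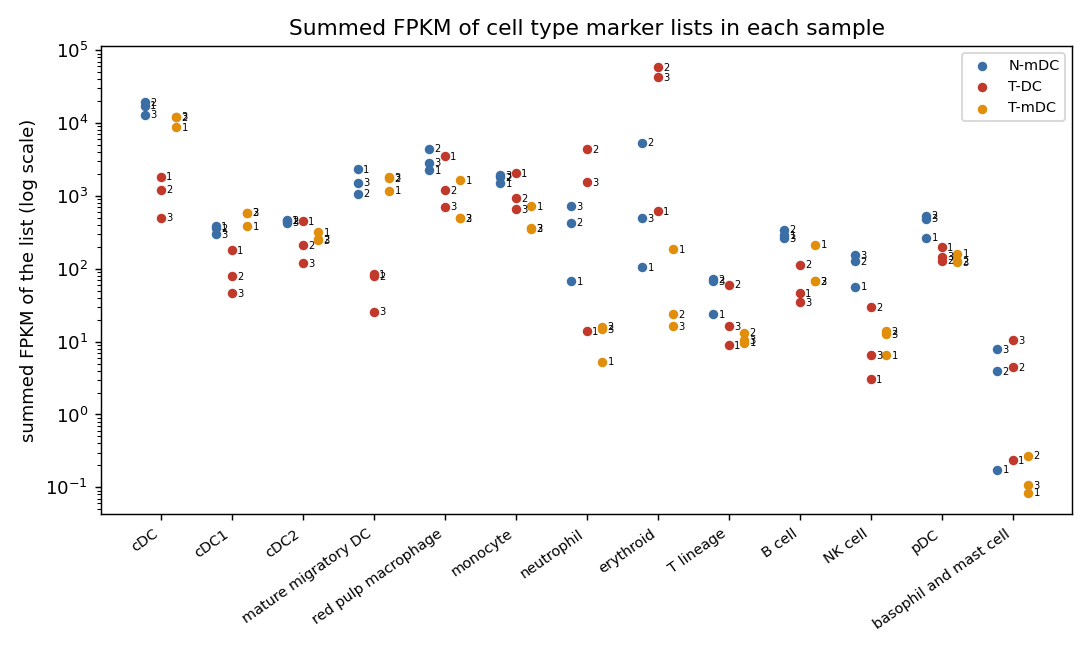
Summed FPKM of each cell type marker list (log scale) in each of the 9 samples, with points for samples coloured by group and numbered by replicate. The erythroid sum of T-DC samples 2 and 3 stands at 58480 and 42927 FPKM, and the cDC sum of every T-DC sample lies under that of every N-mDC and T-mDC sample. Cd74 and H2-Ab1 make up most of the cDC sum.

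The promoters of 3 genes whose T-DC samples did not overlap with either other group are shown, Gpr183 and Gpr132 on the lower side and Ltb4r1 on the higher side. They come from RefSeq on build GRCm38.p6 and run from 250 bases before to 50 bases after a start listed there, 5′ to 3′ along the gene's strand. Of the 9 receptor genes, 8 had an entry and S1pr1 had none. Gpr183 is at chr14:121965144-121965443 on the minus strand, Gpr132 at chr12:112860867-112861166 on the minus strand and Ltb4r1 at chr14:55765712-55766011 on the plus strand. The Gpr132 window lies inside the gene as listed (chr12:112850873-112868228), away from its 5′ end. Both Gpr35 windows, which begin at 92972869 and 92978653, also lie inside that gene (chr1:92950865-92986391). For these genes the 5′ end of the listed gene was not searched. Capitals mark the letters of a searched motif on either strand.
Gpr183: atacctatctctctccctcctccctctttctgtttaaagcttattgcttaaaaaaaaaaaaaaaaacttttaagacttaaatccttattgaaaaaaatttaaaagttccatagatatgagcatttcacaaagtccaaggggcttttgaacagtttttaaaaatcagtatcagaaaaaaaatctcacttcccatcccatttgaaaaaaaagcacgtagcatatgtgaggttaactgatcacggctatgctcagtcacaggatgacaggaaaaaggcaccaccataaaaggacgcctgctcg
Gpr132: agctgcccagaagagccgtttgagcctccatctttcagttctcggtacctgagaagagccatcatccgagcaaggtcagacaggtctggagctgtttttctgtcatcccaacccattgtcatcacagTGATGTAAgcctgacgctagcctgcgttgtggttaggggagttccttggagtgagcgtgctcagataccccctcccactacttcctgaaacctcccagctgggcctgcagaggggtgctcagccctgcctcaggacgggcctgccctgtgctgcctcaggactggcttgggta
Ltb4r1: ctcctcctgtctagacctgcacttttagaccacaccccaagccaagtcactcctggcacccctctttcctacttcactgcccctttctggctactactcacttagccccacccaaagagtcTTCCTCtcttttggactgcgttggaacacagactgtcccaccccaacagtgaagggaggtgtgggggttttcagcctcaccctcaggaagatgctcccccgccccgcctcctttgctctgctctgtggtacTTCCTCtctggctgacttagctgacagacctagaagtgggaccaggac

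The search covered 6 motifs on both strands, and its list was written after the promoters had been seen. AP-1 (TGANTCA) is held by 7.81% of the 32851 promoters in the table, CRE (TGACGTCA) by 1.79%, the kB site (GGGA, any 2 bases, TTCC) by 1.47%, the PU.1 core (GAGGAA) by 28.3%, the interferon response core (GAAA, any 2 bases, GAAA) by 3.44%, and a C/EBP and CRE variant (TGATGTAA) by 1.11%. The last of these letters were read off the Gpr132 promoter before they were searched, so their match there, at bases 128 to 135 of the window, was certain in advance. The PU.1 core matched Ltb4r1 at bases 122 to 127 and 253 to 258, S1pr3 at bases 136 to 141 and the second Gpr35 promoter at bases 83 to 88 and 239 to 244, and AP-1 matched that Gpr35 promoter at bases 67 to 73. CRE, the kB site and the interferon response core matched none of the 9 promoters of these genes. None of the 6 motifs matched in the windows of Gpr183, Ptger2, Ptger3 and Ptger4. A match describes letters in a window and no match says only that these letters are not there.

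In T-DCs against N-mDCs, 3 of the 9 receptor genes were called lower (Gpr183, Gpr132 and S1pr1) and 0 higher (1 at an unadjusted p under 0.05, Ltb4r1, and 0 by limma voom on reads), where limma called 10.3% of all tested genes lower and 6.10% higher. The samples did not overlap in 4 genes on the lower side, against 16.4% of all tested genes, and in 2 on the higher side, against 16.0%. In T-DCs against T-mDCs, 3 were called lower (Gpr183, Gpr132 and Ptger4) and Ltb4r1 was called higher, against 8.79% and 5.44% of all tested genes. Those same 3 and 1 genes were the ones whose samples did not overlap, against 18.1% and 16.8%. In T-mDCs against N-mDCs, S1pr1 was called lower, against 1.52% of all tested genes, and 0 were called higher (0 at an unadjusted p under 0.05 and 0 by limma voom), against 0.690%. The samples did not overlap in 4 genes on the lower side, against 15.7%, and in 0 on the higher side, against 19.3%. Both comparisons of T-DCs share the T-DC samples and so are not independent. The median log2 fold change of the 9 genes was -1.16, -0.28 and -0.57 in the 3 comparisons, against 0.05, 0.07 and 0.03 over all tested genes.

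**Figure D2:**
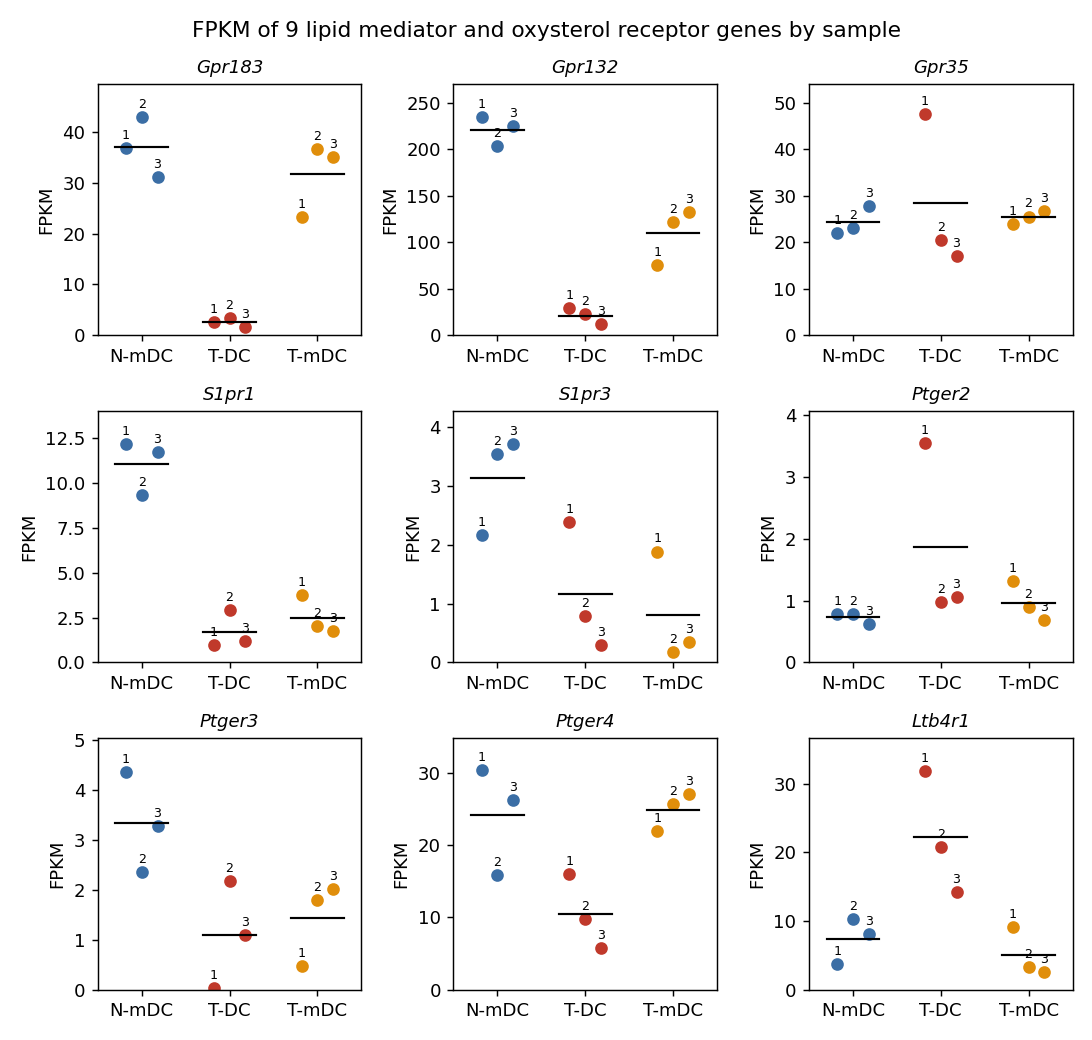
FPKM (linear axis from 0, its own scale in each panel) of the 9 receptor genes in the 3 groups of 3 samples, with points for samples numbered by replicate and a line at each group mean. Every T-DC sample lies under every sample of both other groups for Gpr183 and Gpr132 and above them for Ltb4r1.

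T-DCs expressed lower levels of the oxysterol receptor than either mature group. Gpr183 (ENSMUSG00000051212, chr14:121952551-121965195, minus strand, GRCm38) was at 36.9, 42.9 and 31.2 FPKM in N-mDC samples 1 to 3, 2.69, 3.49 and 1.55 FPKM in T-DC samples 1 to 3, and 23.3, 36.6 and 35.1 FPKM in T-mDC samples 1 to 3. The T-DC samples were all low and did not overlap with either group, while N-mDCs and T-mDCs overlapped. The mean was 14.4-fold lower in T-DCs (2.58 ± 0.973 FPKM, SD, n = 3) than in N-mDCs (37.0 ± 5.88 FPKM), a log2 fold change of -3.44 (SE 0.27, limma adjusted p = 0.000456). It was 12.3-fold lower than in T-mDCs (31.7 ± 7.28 FPKM), a log2 fold change of -3.20 (SE 0.27, limma adjusted p = 0.00102). Between T-mDCs and N-mDCs, the log2 fold change was -0.23 with a 95% interval from -0.84 to 0.37 (limma adjusted p = 0.701). The T-DC values rest on 68 to 156 reads. The call against N-mDCs was made in 22 of 22 alternative settings and the call against T-mDCs in 21 of 22, ending with the erythroid covariate (log2 fold change -3.06, limma adjusted p = 0.124, over all alternatives 5.73e-08 to 0.124). Gpr183 lies inside Ubac2 on the opposite strand, without shared exonic bases, and the use of strand in counting is not given in the sources used here. Ubac2 was at 19.9 to 35.1 FPKM in T-DCs and 39.7 to 51.9 FPKM in N-mDCs.

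The oxysterol enzymes were read beside Gpr183. Ch25h, which makes the precursor of the Gpr183 ligand, was at 0 FPKM in all T-DC samples and at most 0.564 FPKM in any sample. Of the 3 enzyme genes of 5 that were tested, Cyp27a1, the sterol 27-hydroxylase, was called lower against N-mDCs, at 36.5, 13.8 and 11.0 FPKM in T-DCs and 97.8 to 106 FPKM in N-mDCs (log2 fold change -2.46, limma adjusted p = 0.00577). Cyp27a1 (-1.77, limma adjusted p = 0.0220) and Cyp7b1, which adds the second hydroxyl group of the ligand (-1.19, limma adjusted p = 0.0318), were called lower against T-mDCs. Both calls against T-mDCs ended with T-mDC samples 2 and 3 averaged.

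S1pr1, the S1P receptor that guides exit of lymphocytes and DCs from tissue, was lower in both leukemic groups than in N-mDCs. S1pr1 (ENSMUSG00000045092, chr3:115710433-115715072, minus strand, GRCm38) measured 12.2, 9.34 and 11.7 FPKM among N-mDCs, while T-DCs held 0.990, 2.92 and 1.21 FPKM and T-mDCs 3.74, 2.0 and 1.75 FPKM. All N-mDC samples were above all samples of both leukemic groups, and T-DCs and T-mDCs overlapped. T-DCs had 6.48-fold less than N-mDCs by the means (1.71 ± 1.06 against 11.1 ± 1.52 FPKM, SD, n = 3), a log2 fold change of -2.22 (SE 0.30, limma adjusted p = 0.00295), called in 22 of 22 alternatives. T-mDCs (2.5 ± 1.08 FPKM) differed from N-mDCs by -1.82 on the log2 scale (SE 0.30, limma adjusted p = 0.0240). This call was made in 13 of 22 alternatives. It ended when any of the N-mDC samples or T-mDC sample 2 or 3 was left out, when T-mDC samples 2 and 3 were averaged, and with a replicate block, and over all alternatives the limma adjusted p ranged from 0.000268 to 0.137. Between T-DCs and T-mDCs, the log2 fold change was -0.39 with a 95% interval from -1.09 to 0.30 (limma adjusted p = 0.418). The NK cell and B cell sums were also lower in both leukemic groups than in N-mDCs, while the T lineage sums of T-DCs and N-mDCs overlapped. Of 7 NK cell markers, 6 were called lower in each leukemic group against N-mDCs, and their summed FPKM ran from 57.1 to 153 among N-mDCs, while T-DCs had 3.06 to 29.5 and T-mDCs 6.55 to 13.9. Of 7 B cell markers, 6 were called lower in T-DCs and 0 in T-mDCs against N-mDCs, and their sum ran from 262 to 342 FPKM among N-mDCs, while T-DCs had 34.7 to 114 FPKM and T-mDCs 67.5 to 214 FPKM. No marker of either list was at 0 in all samples, and the part of these cells in the S1pr1 difference was not tested.

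S1pr3, an S1P receptor found on myeloid and vascular cells, had few reads and was called in no comparison. S1pr3 (ENSMUSG00000067586, chr13:51408639-51422797, plus strand, GRCm38) measured 2.16, 3.55 and 3.71 FPKM among N-mDCs, while T-DCs held 2.39, 0.795 and 0.295 FPKM and T-mDCs 1.89, 0.186 and 0.353 FPKM. T-DC sample 1 reached into the range of N-mDCs, T-DC samples 2 and 3 did not, and all T-mDC samples were below all N-mDC samples. Its log2 fold change was -1.04 in T-DCs against N-mDCs (95% interval -2.01 to -0.06, limma adjusted p = 0.124), 0.26 against T-mDCs (-0.72 to 1.23, limma adjusted p = 0.719) and -1.29 in T-mDCs against N-mDCs (-2.27 to -0.31, limma adjusted p = 0.177). Against N-mDCs, T-DCs were called lower in 2 of 21 alternatives, without T-DC sample 1 (-1.42, limma adjusted p = 0.0224) and with array weights (-1.07, limma adjusted p = 0.00240), over a range of adjusted p from 0.00240 to 0.506. Array weights, whose fit did not converge, also gave the single call among the 21 alternatives in each of the other comparisons. The lowest value rested on 16 reads.

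The genes that act on S1P and on S1pr1 were read beside these receptors. Of 12 S1P enzymes and transporters, 8 were tested, and against N-mDCs Sgpp1 and Plpp1, phosphatases that act on S1P and related lipid phosphates, were called higher in T-DCs (by 0.83 with limma adjusted p = 0.0162 and by 0.74 with adjusted p = 0.0496 on the log2 scale). The Plpp1 call was made in 6 of 22 alternatives and that of Sgpp1 in 17, and against T-mDCs 0 of the 8 were called by limma, or by limma voom, with 1 lower and 2 higher at an unadjusted p under 0.05. Of 3 regulators of S1pr1, Cd69, which draws S1pr1 from the surface, had a call on the lower side against N-mDCs (-2.01, limma adjusted p = 0.00255), and Foxo1, which promotes transcription of S1pr1 through Klf2, was also called lower (-1.14, limma adjusted p = 0.0266). Klf2 itself was at 874, 310 and 220 FPKM in T-DCs and 602 to 910 FPKM in N-mDCs and was not called. Cd69 was among the 3 genes most like S1pr1 over the 9 samples (Pearson's r 0.985).

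T-DCs expressed lower levels of Gpr132, the receptor gene of the 9 with the highest FPKM in both mature groups. Gpr132 (ENSMUSG00000021298, chr12:112850873-112868228, minus strand, GRCm38) measured 235, 204 and 225 FPKM among N-mDCs, while T-DCs held 29.7, 22.5 and 11.8 FPKM and T-mDCs 75.3, 122 and 132 FPKM. The 3 groups did not overlap, with T-DCs lowest and N-mDCs highest. The mean of T-DCs (21.3 ± 8.98 FPKM, SD, n = 3) was 10.4-fold lower than that of N-mDCs (221 ± 15.8 FPKM), a log2 fold change of -3.40 (SE 0.34, limma adjusted p = 0.000950), and 5.16-fold lower than that of T-mDCs (110 ± 30.5 FPKM), a log2 fold change of -2.36 (SE 0.34, limma adjusted p = 0.00386). The call against N-mDCs was made in 22 of 22 alternatives, and the call against T-mDCs in 21 of 22, lost with the erythroid covariate (log2 fold change -1.43, limma adjusted p = 0.258, over all alternatives 7.35e-08 to 0.258). The difference of T-mDCs from N-mDCs, -1.04 on the log2 scale (95% interval -1.81 to -0.27), missed the threshold (limma adjusted p = 0.168).

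Gpr35 was called in no comparison. Gpr35 (ENSMUSG00000026271, chr1:92950865-92986391, plus strand, GRCm38) measured 22, 23.1 and 27.7 FPKM among N-mDCs, while T-DCs held 47.6, 20.4 and 17.1 FPKM and T-mDCs 23.9, 25.5 and 26.8 FPKM. T-DC sample 1 was the highest of all 9 samples and T-DC samples 2 and 3 were the lowest. The log2 fold change was 0.08 against N-mDCs (95% interval -0.68 to 0.85, limma adjusted p = 0.885), 0.01 against T-mDCs (-0.75 to 0.78, limma adjusted p = 0.980) and 0.07 in T-mDCs against N-mDCs (-0.70 to 0.83, limma adjusted p = 0.941). These intervals leave room for changes of either sign. In T-DCs, Gpr35 had the highest mean FPKM of the 9 genes, followed by Ltb4r1 and Gpr132, but in T-DC sample 2 both of these were above Gpr35.

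Of the prostaglandin E2 receptors, Ptger4 was called lower in T-DCs than T-mDCs, and Ptger2 and Ptger3 were called in no comparison. Ptger4 and Ptger2 couple to the G protein that raises cyclic AMP, and Ptger3 to the class that lowers it. Ptger4 (ENSMUSG00000039942, chr15:5206661-5244187, minus strand, GRCm38) measured 30.4, 15.9 and 26.2 FPKM among N-mDCs, while T-DCs held 15.9, 9.72 and 5.82 FPKM and T-mDCs 22, 25.7 and 27.1 FPKM. T-DCs lay under all T-mDC samples, and T-DC sample 1 was level with N-mDC sample 2. Against T-mDCs, T-DCs had 2.37-fold less by the means (10.5 ± 5.11 against 24.9 ± 2.65 FPKM, SD, n = 3), a log2 fold change of -1.27 (SE 0.35, limma adjusted p = 0.0441). This call was made in 9 of 22 alternatives and ended, among others, without T-DC sample 2 or 3, without N-mDC sample 1 or 3, when any 1 of the T-mDC samples was left out, with T-mDC samples 2 and 3 averaged and with a replicate block. With the erythroid covariate the log2 fold change against T-mDCs was -0.05 (limma adjusted p = 0.956, over all alternatives 9.02e-07 to 0.956). Against N-mDCs, the log2 fold change was -1.18 (95% interval -1.98 to -0.39, limma adjusted p = 0.0511), a call in 6 of 22 alternatives, among them voom and the fits that left out T-DC sample 1 or N-mDC sample 2, and its value ranged from -1.51 without T-DC sample 1 to -0.36 with the erythroid covariate. Between T-mDCs and N-mDCs it was 0.08 (-0.71 to 0.88, limma adjusted p = 0.928). Ptger4 shares 82 exonic bases with Ttc33 on the opposite strand and 1015 with the pseudogene Gm15937, which was at 0.044 FPKM at most.

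Ptger3 (ENSMUSG00000040016, chr3:157566892-157645888, plus strand, GRCm38) measured 4.37, 2.37 and 3.28 FPKM among N-mDCs, while T-DCs held 0.029, 2.19 and 1.1 FPKM and T-mDCs 0.475, 1.79 and 2.02 FPKM. All samples of both leukemic groups were below all N-mDC samples, and T-DC sample 1 had 3 reads. The log2 fold change was -1.16 in T-DCs against N-mDCs (95% interval -2.16 to -0.17, limma adjusted p = 0.0971), -0.28 against T-mDCs (-1.27 to 0.71, limma adjusted p = 0.693) and -0.88 in T-mDCs against N-mDCs (-1.87 to 0.11, limma adjusted p = 0.351), none past the threshold. Ptger2 (ENSMUSG00000037759, chr14:44988195-45003820, plus strand, GRCm38) measured 0.788, 0.789 and 0.626 FPKM among N-mDCs, while T-DCs held 3.56, 0.982 and 1.05 FPKM and T-mDCs 1.32, 0.897 and 0.691 FPKM. T-DC samples were above all N-mDC samples, sample 1 by far the most. Its log2 fold change was 0.61 against N-mDCs (95% interval -0.10 to 1.33, limma adjusted p = 0.197), 0.44 against T-mDCs (-0.28 to 1.16, limma adjusted p = 0.383) and 0.17 in T-mDCs against N-mDCs (-0.54 to 0.89, limma adjusted p = 0.823). Ptger2 shares 246 exonic bases with the antisense gene Gm17173, which was at 0.175 FPKM at most.

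The arms before and after these receptors were read from lists. For T-DCs, limma called 10.3% of all tested genes lower and 6.10% higher against N-mDCs, and 8.79% lower and 5.44% higher against T-mDCs. Of 13 prostanoid enzymes and transporters, 10 were tested. Ptgs2, the inducible cyclooxygenase, was at 2.22, 3.27 and 0.661 FPKM in T-DCs, 41.7 to 92.5 FPKM in N-mDCs and 31.1 to 45.1 FPKM in T-mDCs. It was called lower against N-mDCs (log2 fold change -4.49, limma adjusted p = 0.000639) and against T-mDCs (-3.83, limma adjusted p = 0.00177). Ptgis, prostacyclin synthase, was called lower against N-mDCs (-2.34, limma adjusted p = 0.00442), and Abcc4, which exports prostaglandins, was called higher against N-mDCs (0.86, limma adjusted p = 0.0201) and T-mDCs (0.69, limma adjusted p = 0.0474). The Abcc4 call against T-mDCs was made in 7 of 22 alternatives. Of 16 genes of the cyclic AMP arm, 15 were tested, with 4 called lower against N-mDCs (Adcy4, Pde4b, Pde7a and Crem), 2 against T-mDCs (Adcy4 and Pde4b) and 0 called higher by limma or limma voom in either, with 1 in each at an unadjusted p under 0.05. Pde4b, a cyclic AMP phosphodiesterase, was at 11.9, 11.2 and 4.59 FPKM in T-DCs against 43.2 to 76.8 FPKM in N-mDCs (-2.71, limma adjusted p = 0.00444). Crem, a cyclic AMP-responsive transcription factor, was at 1.05 to 1.62 FPKM in T-DCs and 0.890 to 1.39 FPKM in T-mDCs against 10.4 to 20.1 FPKM in N-mDCs.

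Ltb4r1 was the receptor gene of the 9 that was called higher in T-DCs, and only against T-mDCs. Ltb4r1 (ENSMUSG00000046908, chr14:55765962-55768494, plus strand, GRCm38) measured 3.81, 10.3 and 8.18 FPKM among N-mDCs, while T-DCs held 31.9, 20.8 and 14.2 FPKM and T-mDCs 9.12, 3.30 and 2.54 FPKM. All T-DC samples were above all other samples, and N-mDCs and T-mDCs overlapped. Against T-mDCs (4.99 ± 3.60 FPKM, SD, n = 3), T-DCs (22.3 ± 8.92 FPKM) had a 4.47-fold higher mean, a log2 fold change of 2.05 (SE 0.48, limma adjusted p = 0.0254). This call was made in 14 of 22 alternatives and ended, among others, without T-DC sample 2, without T-mDC sample 2 or 3, with T-mDC samples 2 and 3 averaged and with the erythroid covariate (log2 fold change 1.91, limma adjusted p = 0.365, over all alternatives 1.99e-06 to 0.365). Against N-mDCs, the log2 fold change was 1.48 (95% interval 0.39 to 2.57) and missed the threshold (limma adjusted p = 0.0655), and between T-mDCs and N-mDCs it was -0.57 (-1.66 to 0.52, limma adjusted p = 0.595). Within T-DCs, Ltb4r1 fell from sample 1 to sample 3, and so did the monocyte and red pulp macrophage sums. This order was not particular to them. The cDC sum (1832, 1220 and 500 FPKM), the sums of cDC1, cDC2 and mature migratory DC markers, and Gpr132, Gpr35 and Ptger4 fell in it too. The 6 monocyte markers summed to 2061, 938 and 655 FPKM in T-DC samples 1 to 3, 357 to 727 FPKM in T-mDCs and 1505 to 1921 FPKM in N-mDCs. Of these, 2 were called higher against T-mDCs and 1 lower against N-mDCs. Nr4a1 made up most of the N-mDC sum (1183, 1293 and 1435 FPKM in N-mDC samples 1 to 3) and was at 1046, 408 and 302 FPKM in T-DCs. Cx3cr1 was higher in all T-DC samples (34.4 to 92.2 FPKM) than in N-mDCs (8.72 to 16.5 FPKM), while Ccr2 was lower (2.34 to 5.38 against 8.27 to 26.7 FPKM). Csf1r (176 to 609 against 203 to 314 FPKM), Treml4 (112 to 300 against 87.0 to 125 FPKM) and Ly6c2 overlapped. Against N-mDCs, 0 of the 6 were called higher, Cx3cr1 included. The 10 red pulp macrophage markers summed to 3496, 1197 and 709 FPKM in T-DC samples 1 to 3, 493 to 1635 FPKM in T-mDCs and 2238 to 4450 FPKM in N-mDCs, with 0 called in either T-DC comparison. The erythroid and neutrophil sums were lowest in T-DC sample 1. The part of these cells in the Ltb4r1 difference was not tested beyond the erythroid covariate. Of 7 leukotriene and lipoxygenase genes, 6 were tested, and Alox5, which starts leukotriene synthesis, had a call on the higher side against T-mDCs (1.75, limma adjusted p = 0.0177) and was not called against N-mDCs (0.78, limma adjusted p = 0.167). The Alox5 call ended with T-mDC samples 2 and 3 averaged.

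**Figure D3:**
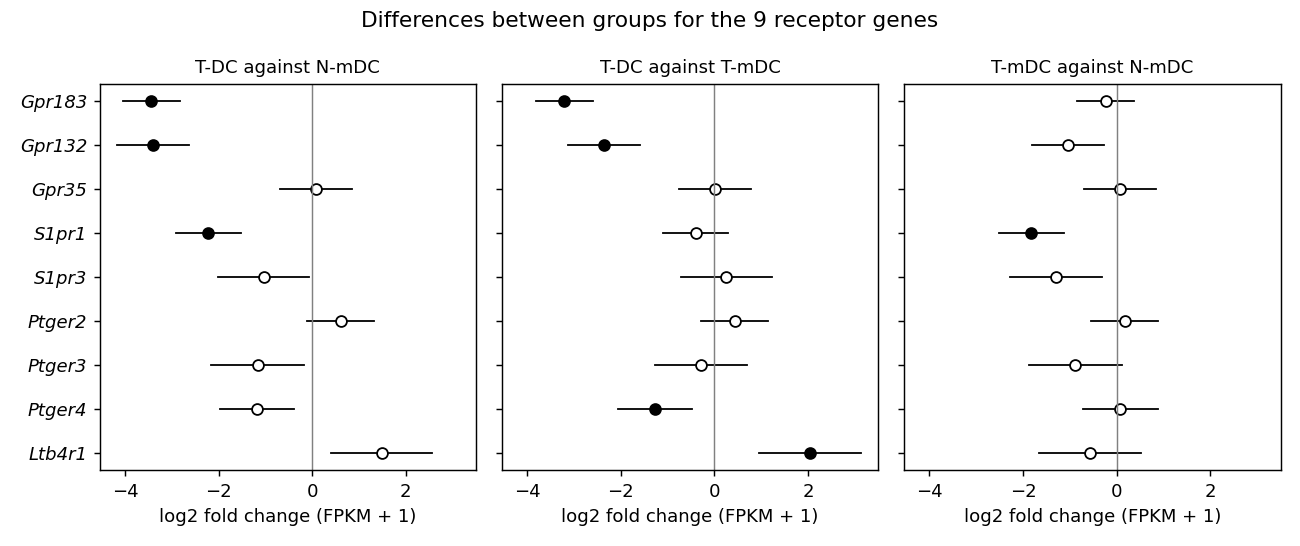
Log2 fold change of FPKM + 1 for the 9 receptor genes in the 3 comparisons, with points for the limma estimate, bars for its 95% interval and filled points for an adjusted p under 0.05. Gpr183 and Gpr132 are filled on the lower side in both T-DC comparisons, and Ltb4r1 is filled on the higher side against T-mDCs.

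Other lipid, fatty acid and proton receptors were read for comparison. Of 40 such genes, 25 were tested, and in T-DCs 11 were called lower and 1 higher against N-mDCs, and 9 lower and 3 higher against T-mDCs. Over all tested genes, limma called 10.3% lower and 6.10% higher against N-mDCs, and 8.79% lower and 5.44% higher against T-mDCs. P2ry10, a lysophosphatidylserine receptor, was at 8.95, 12.3 and 2.89 FPKM in T-DCs against 86.5 to 178 FPKM in N-mDCs and 61.7 to 103 FPKM in T-mDCs (-4.13 against N-mDCs, limma adjusted p = 0.00161, and -3.44 against T-mDCs, limma adjusted p = 0.00361). Ffar2, a receptor for short-chain fatty acids, had log2 fold changes of -3.63 and -3.10 (limma adjusted p = 0.00188 and 0.00386), and Gpr4, a proton sensor, had -2.66 and -3.03 (limma adjusted p = 0.00383 and 0.00261). S1pr5, an S1P receptor, measured 136, 51.8 and 47.4 FPKM among T-DCs, while T-mDCs held 27.0, 0.331 and 0.565 FPKM and N-mDCs 3.43 to 6.66 FPKM. It was called higher against T-mDCs (4.18, limma adjusted p = 0.0322), a call made in 11 of 22 alternatives, and was not called against N-mDCs (3.50, limma adjusted p = 0.0531).

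**Figure D4:**
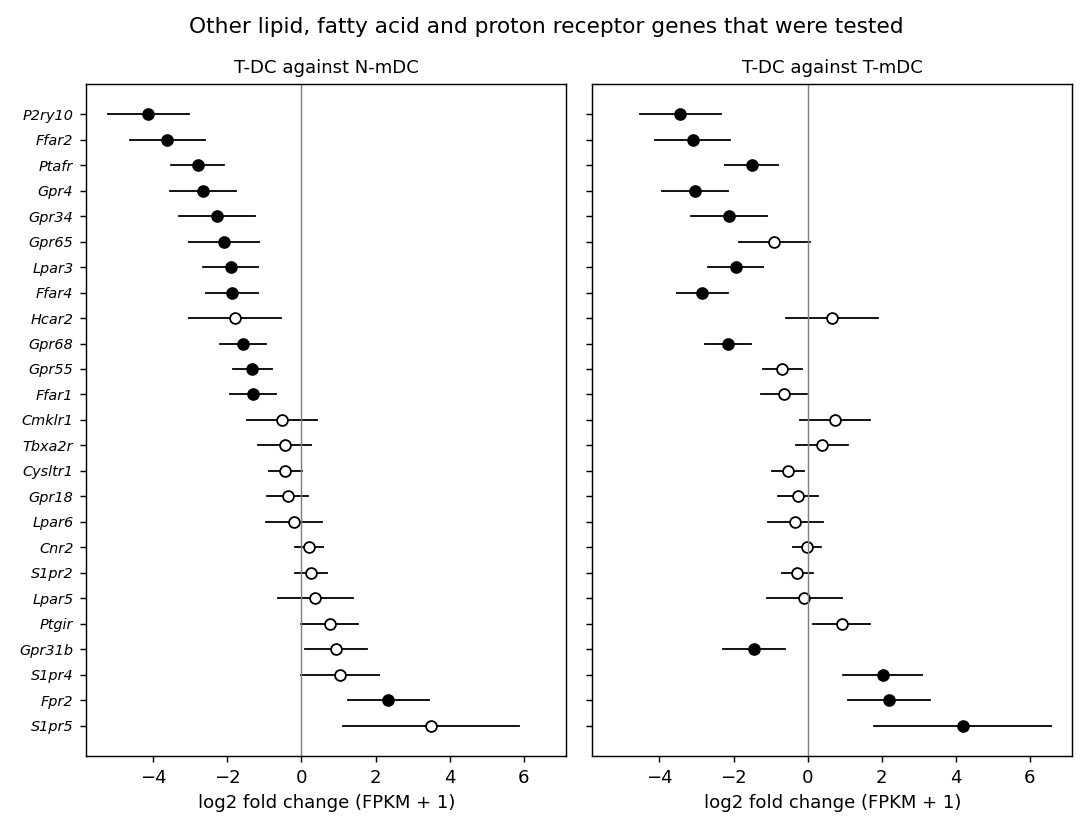
Log2 fold change of FPKM + 1 for the 25 other lipid, fatty acid and proton receptor genes that were tested, in T-DCs against N-mDCs and against T-mDCs, with points for the limma estimate, bars for the 95% interval and filled points for an adjusted p under 0.05. P2ry10 and Ffar2 lie farthest on the lower side and S1pr5 farthest on the higher side.

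Signalling genes shared by these receptors were mostly not called. Of 15 G protein alpha subunits, receptor kinases and arrestins, 14 were tested, and Gnaq was called lower in T-DCs against N-mDCs (-1.46, limma adjusted p = 0.0186) and against T-mDCs (-1.36, limma adjusted p = 0.0260). Arrb1, an arrestin, was called higher against N-mDCs (2.49, limma adjusted p = 0.00446) and against T-mDCs (2.55, limma adjusted p = 0.00438). Arrb1 was at 26.1 FPKM in T-DC sample 1 and at 81.1 and 67.6 FPKM in T-DC samples 2 and 3, the samples with the high erythroid sums. Grk6, a receptor kinase, was also called higher against T-mDCs.

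Several calls of these enzyme, receptor and signalling genes ended when a single sample was left out. Against N-mDCs, leaving out T-DC sample 2, T-DC sample 3 or N-mDC sample 1 ended the call of Abcc4, leaving out N-mDC sample 1 or 3 ended that of Sgpp1, and leaving out T-DC sample 2 or either of those N-mDC samples ended those of Foxo1 and Gnaq. The call of Plpp1 ended when any 1 sample other than T-DC sample 1 was left out, and that of Pde7a when T-mDC sample 3, T-DC sample 2 or 3 or N-mDC sample 1 or 3 was. Against T-mDCs, the calls of Cyp27a1, Gnaq and Pde4b ended without sample 2 or 3 of either leukemic group, those of Alox5 and Grk6 without T-DC sample 2 or T-mDC sample 2 or 3, and that of Adcy4 without T-mDC sample 2 or 3. The call of S1pr5 ended when any 1 of the N-mDC samples, or sample 2 or 3 of either leukemic group, was left out, that of Cyp7b1 without N-mDC sample 3, T-DC sample 2 or 3 or T-mDC sample 1 or 2, and that of Abcc4 when T-DC sample 2 or 3, N-mDC sample 1 or any 1 of the T-mDC samples was left out. Ptgs2, P2ry10, Ffar2, Gpr4 and Arrb1 were called against T-mDCs in 21 of 22 alternatives, all but the erythroid covariate, and against N-mDCs in 22 of 22.

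The genes most like each receptor were named by Pearson's r of log2(FPKM + 1) over the 9 samples, which share their groups, so r describes the group pattern. Gpr183 was most like Scimp (0.996), Grap (0.991) and Tnfsf9 (0.991). Gpr132 was most like Cd83 (0.996), Carns1 (0.996) and Atf3 (0.994). S1pr1 was most like Ralgps2 (0.986), Cd69 and 4930426D05Rik (0.985 each), and S1pr3 like Abcc3 (0.985), Mrc1 (0.977) and Tnfrsf13b (0.976). Ptger4 was most like Dnajb14 (0.999), Tns3 (0.998) and Birc3 (0.997), and Ltb4r1 like Msrb1 (0.993), Kcnab2 (0.990) and Pi16 (0.984). Gpr35 was most like Rgmb (0.977), Ptger2 like Susd3 (0.975) and Ptger3 like Pim1 (0.947).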

How the data were processed

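RNA from 9 samples of sorted spleen DCs, 3 for each of the groups N-mDC, T-DC and T-mDC, was analysed. The authors deposited FPKM for 54532 genes with gene lengths and coordinates. FPKM times length gave whole reads to within 5.73e-05 of a read. The submitters' processing notes name mm10, and 54495 genes were found in GENCODE M21, 98.1% with the same coordinates. The aligner, counter and strand setting are not given in the sources used here.

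The 12746 genes that reached 1 FPKM in 3 or more samples were fitted as log2(FPKM + 1) with limma 3.58.1 in R 4.3.3, all groups in a single fit (lmFit, contrasts.fit, eBayes with trend), with Benjamini-Hochberg adjustment over all tested genes and a threshold of 0.05. Intervals are at 95%. The procedure was tested on simulated data. The receptor genes, lists and tests were chosen with earlier results of these data known. Named genes are the 9 receptors, at most 4 called genes per list with samples that did not overlap, by size of change, genes whose level is given beside a receptor, and the 3 genes most like each receptor by Pearson's r. The members of each list that were called are also named. The 6 promoter motifs were chosen after the promoters were seen. Alternatives were other scalings, pseudocounts, filters, weights, a replicate block, an erythroid covariate, limma voom on recovered reads and leaving out each sample.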

Additional observations from a re-analysis of the deposited data

How the results depend on the processing

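Each result was recomputed under 22 alternatives. Among them, median-of-ratios scaling nearly repeated the main fit, because its factor was the same in every sample. It called 2097 genes against 2096 in T-DCs against N-mDCs, so its place in these counts adds no support. The count of the 9 receptor genes called was 3 in T-DCs against N-mDCs, 4 in T-DCs against T-mDCs and 1 in T-mDCs against N-mDCs. Leaving out each sample gave 3 to 5, 2 to 4 and 0 to 1, with 5 without T-DC sample 1, 2 without T-DC sample 2 or T-mDC sample 2 or 3, and 0 without any N-mDC sample or T-mDC sample 2 or 3. Array weights, whose fit stopped before it converged, gave 7, 7 and 4 and turned the direction of Gpr35 (-0.33, adjusted p = 0.00259, over all alternatives 0.00259 to 1) and S1pr1 (0.40, adjusted p = 0.00598, over all alternatives 0.00598 to 0.780) in T-DCs against T-mDCs. Against T-mDCs the count was 2 with TPM, with no filter, with only the groups compared and with T-mDC samples 2 and 3 averaged. It was 0 with the erythroid covariate, where limma called 0 of all tested genes, 1808 had an unadjusted p under 0.05 and 4 of these were receptor genes. In T-mDCs against N-mDCs the count was 0 with TPM, a pseudocount of 0.1, the replicate block and that average. The replicate block gave 3, 3 and 0. Same-numbered samples did not deviate together (correlations from -0.47 to 0.27), so the numbers were not taken as pairs. Over all tested genes, 2096, 1813 and 282 genes were called, and 8485, 9923 and 3841 with array weights, 542, 0 and 260 with the erythroid covariate, 1394, 540 and 23 with that average, 1070, 1036 and 850 with only the groups compared, 1378, 1253 and 78 with the block, and 893 to 4968, 487 to 4420 and 11 to 1021 without a sample. In T-mDCs against N-mDCs it was 107 with a pseudocount of 0.1, 111 with a filter of 5 FPKM and 173 with voom. The causes were not tested. The lowest read counts were 16 for S1pr3, 3 for Ptger3, 54 for S1pr1, 59 for Ptger2, 65 for Ltb4r1 and 68 for Gpr183, which limits small differences of these genes.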

Other observations

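Sphk1 and Mfsd2b, genes of the S1P list, stood out in T-DC samples 2 and 3 and not in T-DC sample 1. The erythroid sums were 58480 and 42927 FPKM in T-DC samples 2 and 3 and 619 FPKM in T-DC sample 1. The part of erythroid cells in these levels was not tested. Sphk1, a kinase that makes S1P, was at 0.327 FPKM in T-DC sample 1, 19.5 and 24.2 FPKM in T-DC samples 2 and 3 and at most 0.433 FPKM in the other groups. Mfsd2b, which exports S1P from red cells and platelets, was at 0.889, 56.0 and 55.6 FPKM in T-DC samples 1 to 3 and at most 0.881 FPKM in the other groups. Both missed the filter, since only 2 samples reached 1 FPKM, and were named after their values were seen. S1pr4 was at 22.1, 11.9 and 11.7 FPKM in T-DCs, 4.21 to 8.17 FPKM in N-mDCs, and 6.90, 1.5 and 1.85 FPKM in T-mDC samples 1 to 3. Alox15, a lipoxygenase, was at 0.819, 19.6 and 16.0 FPKM in T-DCs, 1.69, 9.09 and 6.28 FPKM in N-mDCs and at most 0.199 FPKM in T-mDCs.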
